A study of Homo sapiens with 6 samples.

Results

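The nuclear-encoded genes of the mitochondrial respiratory chain were compared between 2 groups of cells labelled Hep3B. Members were chosen by gene symbol alone. The symbols taken were those of the NDUFA, NDUFB, NDUFC, NDUFS and NDUFV series, SDHA to SDHD, the UQCR series, CYC1, the numbered COX series and the ATP5 series. They took 103 of the 17381 rows of the deposited table, and rows that share a symbol were summed, which left 95 of 16510 gene names. Complex I had 37 members, complex II 4, complex III 10, complex IV 16 and complex V 19. A further 9 members carry COX symbols but encode assembly factors of complex IV and were kept apart. The mean normalized count over both groups was at least 1 for 94 members, and the exception was COX6A2.

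The respiratory chain sits in the inner mitochondrial membrane. Complexes I and II pass electrons from NADH and succinate to ubiquinone, complex III passes them on to cytochrome c, and complex IV passes them to oxygen. Complexes I, III and IV pump protons as they do so, and complex V, the ATP synthase, uses the proton gradient to make ATP. Most subunits are encoded in the nucleus, and a few core subunits are encoded in mitochondrial DNA. None of 26 symbols looked up for genes of mitochondrial DNA was in the deposited table, and those genes were not analysed here. In liver the chain is a main source of ATP, and several of its small subunits exist as tissue isoforms.

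Hep3B is a human hepatocellular carcinoma line. All cells were described as a derivative that had become resistant to sorafenib, a kinase inhibitor given in liver cancer. The control group was wildtype and the other group was labelled as a knockout of STIM1, a sensor of calcium in the endoplasmic reticulum, with 3 libraries in each group and no treatment given to either. Whether the libraries of a group came from separate cultures or clones is not stated, so p-values measure the spread between these libraries, which may be technical.

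The deposited table held group means only, and the whole reads of each library were solved for from the printed means. Depth was 16398821, 14931936 and 13857706 reads in the control libraries and 15098349, 14694890 and 12042705 reads in the STIM1 knockout libraries. Within a group they are called A, B and C and cannot be tied to a sample number. STIM1 itself was at 1047, 972 and 836 normalized counts in the control libraries and at 1454, 1439 and 1422 in the libraries labelled knockout. The groups did not overlap, and the transcript was higher under the knockout label, so it goes against that label as a measure of transcript level. Which part of the gene was targeted is not stated in the labels. The hepatocyte markers ALB, AFP and AHSG had at most 1 read in any library, and APOA1 at most 2, while HNF4A rose from 219 ± 21.9 to 817 ± 61.2 normalized counts (SD, n = 3) and SERPINA1 fell from 7, 5 and 10 reads to 0 in each library. FGB and TF did not pass. The near absence of ALB, AFP, AHSG and APOA1 does not bear out the label Hep3B, and the identity of the cells was not tested. Among markers of other cells, the summed level of 7 blood and immune genes lay between 984 and 1083 in the control libraries and between 87.9 and 109 in the STIM1 knockout libraries. CD68 made up most of that sum, and the defining markers PTPRC and CD3E had at most 2 reads. The summed level of 5 endothelial genes lay between 127 and 165 in the control libraries and between 19.5 and 22.9 in the others, with PECAM1 the main part and KDR at 1 read or fewer. The summed level of 7 fibroblast genes lay between 1954 and 2146 in the control libraries and between 3122 and 3671 in the others. COL1A1 alone carried that difference, at means of 1485 against 3111, while DCN fell from 107 to 3.95 and PDGFRB from 297 to 149, and the other 4 did not pass. Their part in the results on the respiratory chain was not tested. In such bulk samples, fewer cells of a type and less RNA per cell cannot be told apart.

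In what follows a gene rose or fell where the adjusted p in the authors' deposited table was under 0.05. Values are normalized read counts, that is reads divided by the size factor of the library. Log2 changes are STIM1 knockout minus control on log2(normalized count + 1) with the standard error and the Benjamini-Hochberg adjusted p of limma, fitted over all genes.

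Respiratory chain genes moved in both directions and by small amounts. By the call in the authors' deposited table, 28 members rose, 31 fell and 36 did not pass. Of all rows of the authors' deposited table, 54.5% were called, 25.7% higher and 28.8% lower, so the members' share of 62.1% was near that of the whole table. The median change of the members was -0.04, as was that of the 14771 genes tested. The median size of change, regardless of sign, was 0.26 for the members and 0.47 for all genes tested. A change of at least 1 on the log2 scale with a call in the authors' deposited table was seen for 7 of 95 members (7.37%), against 17.1% of all rows. The measures differ, since members were counted by limma's log2 change and rows by the deposited log2 ratio of the group means. By that ratio NDUFA6, at 1.02, would count too. Respiratory chain genes are highly expressed, so the same was done at a mean of at least 100, a limit chosen after seeing the data. There 56 of 78 members were called (71.8%) against 75.3% of rows. Of these members 5 changed by at least 1 (6.41%), against 14.3% of rows, with the same difference in measure. The median size of change was 0.24 for those members and 0.37 for the 10176 genes at that level. The values of the 2 groups did not overlap for 66 members, and they did not overlap for 72.4% of genes tested. With limma's adjusted p, 28 members were higher and 35 lower, against 69.9% of genes called in either direction.

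**Figure D1:**
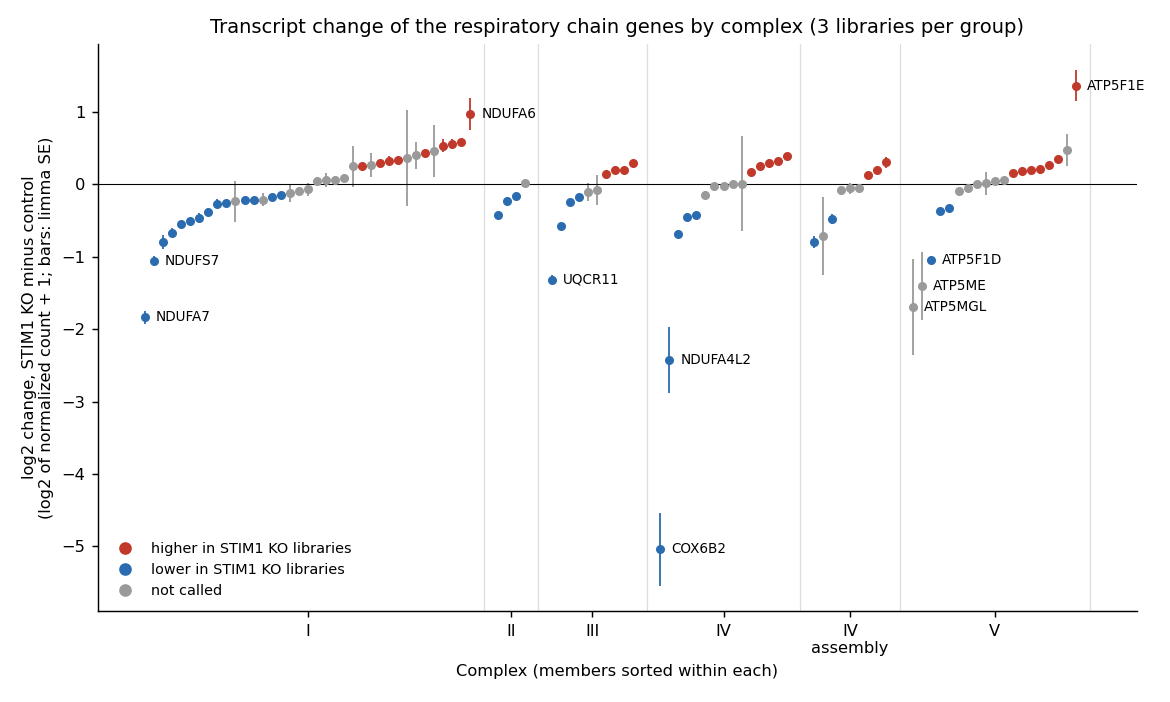
Log2 change of each respiratory chain gene, STIM1 knockout minus control, on log2(normalized count + 1), sorted within each complex. Points are the 94 members with a mean of at least 1, bars are limma's standard error over 3 libraries per group, and colours give the call in the authors' deposited table. Most members lie near 0, and COX6B2 at -5.04 stands lowest.

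Summed by complex, the transcript level in the STIM1 knockout libraries lay between 92.8% and 108% of the control level. Complex I had summed normalized counts of 30908, 30126 and 30273 in the control libraries and 29793, 28692 and 29214 in the STIM1 knockout libraries, or 96.0% of control. Complex II stood at 92.8% of control and complex V at 108%, and in neither did the groups overlap. Complex III at 97.2% and complex IV at 102% had groups that overlapped. The assembly factors stood at 98.2%, without overlap. Single abundant genes set much of 3 of these sums. ATP5F1B made up 42.8% of the sum of complex V over both groups. Without ATP5F1B the sum of complex V was at 99.8% of control. Complex II without SDHA was at 81.9% and complex III without UQCRC1 at 86.8%. The sums are descriptions, with no test.

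**Figure D2:**
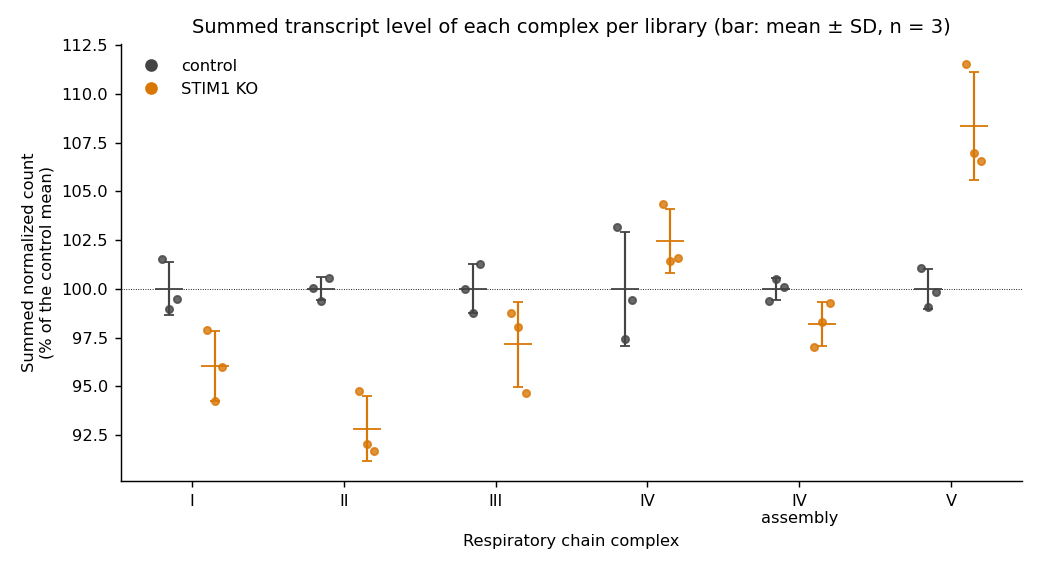
Summed normalized count of the members of each complex in each library, as a percent of the control mean of that complex. Points are libraries and bars are the mean ± SD of 3. The axis does not start at 0. Complex V lies above the control libraries at a mean of 108% and complex II below them at 92.8%.

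Complex I, NADH dehydrogenase, is the largest complex of the chain and has a catalytic core surrounded by accessory subunits. By the call in the authors' deposited table, 9 of its 37 members rose, 14 fell and 14 did not pass, with a median change of -0.07. The 7 nuclear-encoded core subunits, which carry the flavin and the iron-sulfur clusters, held 5 of the falls and no rise. The 30 accessory subunits had 9 rises, 9 falls and 12 that did not pass. The share of core subunits called was 71.4%. Of all rows 54.5% were called in either direction, and 75.3% of those at a mean of at least 100. The 2 core subunits that did not pass, NDUFS1 and NDUFS3, were below that mean. The difference in direction between core and accessory subunits was not tested.

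Among the core subunits, NDUFS7 holds the last iron-sulfur cluster before ubiquinone. It was at 748, 702 and 800 normalized counts in the control libraries and at 384, 348 and 347 in the STIM1 knockout libraries. Its log2 change was -1.06 (SE 0.07, limma adjusted p = 3.07e-09), and every STIM1 knockout library lay below every control library. NDUFS8, which holds 2 iron-sulfur clusters, was at 800, 863 and 768 against 484, 553 and 496 (log2 change -0.67, SE 0.07). NDUFV1, which binds the flavin and NADH, was at 2369, 2464 and 2585 against 1728, 1709 and 1790 (-0.50, SE 0.04). NDUFV2, an iron-sulfur partner of NDUFV1, changed by -0.26 (SE 0.04). In these 4 subunits the groups did not overlap. NDUFS1 and NDUFS3, which did not pass, were at far lower levels, at most 57.9 and 19.4 normalized counts in any control library. Each has rows on a main chromosome and on an alternate locus, so their reads may be divided and their values are uncertain.

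Of the accessory subunits, NDUFA7 showed the largest fall. It was at 444, 420 and 469 normalized counts in the control libraries and at 129, 125 and 118 in the STIM1 knockout libraries. The log2 change was -1.83 (SE 0.09, limma adjusted p = 1.27e-10), with a wide gap between the groups. NDUFA1, an essential small membrane subunit encoded on chromosome X, was at 457, 488 and 446 against 306, 264 and 233 (-0.80, SE 0.09). NDUFB10, NDUFC1 and NDUFAB1, the last of which is also the mitochondrial acyl carrier protein, fell by 0.55, 0.46 and 0.37 on the log2 scale.

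Other accessory subunits rose. NDUFB11, a membrane arm subunit also encoded on chromosome X, was at 1366, 1252 and 1420 normalized counts in the control libraries and at 2091, 1903 and 2049 in the STIM1 knockout libraries (0.58, SE 0.05, limma adjusted p = 8.09e-08). NDUFA8, a twin cysteine subunit of the intermembrane space, was at 918, 833 and 926 against 1473, 1204 and 1266 (0.55, SE 0.07). In both genes all STIM1 knockout libraries were the higher ones. NDUFS4 and NDUFS6, accessory subunits next to the peripheral arm's core whose loss causes complex I deficiency in people, changed by 0.54 (SE 0.08) and 0.43 (SE 0.05). NDUFA6 rose from 34.3 to 69.6 normalized counts on a row that lies only on an alternate locus, so its level is uncertain.

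Complex II, succinate dehydrogenase, is encoded in the nucleus in full and also works in the citric acid cycle. By the call in the authors' deposited table, 3 of its 4 members fell and 1 did not pass. SDHA, the flavoprotein, was at 7290, 7148 and 7304 normalized counts in the control libraries and at 7582, 7295 and 7278 in the STIM1 knockout libraries. Its groups overlapped (log2 change 0.03, SE 0.03, limma adjusted p = 0.376). SDHA has pseudogene copies, and how reads were shared among copies is not given in the sources used here.

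SDHB, the iron-sulfur subunit, was at 1542, 1694 and 1699 normalized counts against 1485, 1517 and 1407 (-0.16, SE 0.05). SDHC, a membrane anchor with the heme, was at 2590, 2463 and 2591 against 1947, 1858 and 1912 (-0.42, SE 0.04, limma adjusted p = 7.54e-08). SDHD, the second anchor, was at 1838, 1871 and 1737 against 1549, 1535 and 1555 (-0.23, SE 0.04). In each of these 3 genes the groups did not overlap, and the largest of the 3 changes was that of SDHC.

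Complex III, the cytochrome bc1 complex, had 4 members that rose, 4 that fell and 2 that did not pass by the authors' deposited table. UQCR11, a small subunit, was at 1119, 1064 and 1136 normalized counts in the control libraries and at 464, 397 and 471 in the STIM1 knockout libraries (log2 change -1.32, SE 0.07, limma adjusted p = 1.68e-10). CYC1, cytochrome c1, which hands electrons to cytochrome c, was at 2004, 1946 and 2113 against 1373, 1292 and 1389 (-0.58, SE 0.04). All 3 STIM1 knockout libraries lay below the control libraries for both genes. UQCRH, the hinge protein, fell by 0.24 on the log2 scale. Its near-identical copy UQCRHL took 4.47% of their summed reads in the control libraries and 4.87% in the others, and reads may be divided between them.

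The core protein UQCRC1 was at 6569, 6632 and 6917 normalized counts against 7879, 7919 and 7353 (0.20, SE 0.03). UQCRQ, a small subunit needed for assembly, was at 1368, 1352 and 1280 against 1706, 1617 and 1595 (0.30, SE 0.04). UQCR10 changed by 0.20 (SE 0.05) and UQCRFS1, the Rieske iron-sulfur protein, by 0.15 (SE 0.05). Those 4 genes were the ones that rose, and none had overlapping groups. UQCRC2, the second core protein, was at a mean of 56.5 in the control libraries, far below UQCRC1, on rows at 2 loci, and is uncertain.

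Complex IV, cytochrome c oxidase, held both the largest fall of the chain and a set of small rises. By the call in the authors' deposited table, 5 of its 16 members rose, 5 fell and 6 did not pass. COX6B2 is the testis isoform of COX6B, the subunit that faces the intermembrane space. It was at 197, 203 and 216 normalized counts in the control libraries and at 0.953, 8.79 and 11.9 in the STIM1 knockout libraries. These values came from 224, 211 and 208 reads against 1, 9 and 10 reads. The log2 change was -5.04 (SE 0.50, limma adjusted p = 3.38e-07), and the log2 ratio of the group means in the authors' deposited table was -4.83. Without STIM1 knockout library A, which had 1 read, limma's log2 change was -4.20.

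The general isoform, COX6B1, was at 986, 934 and 873 normalized counts against 981, 921 and 906, and the groups overlapped (log2 change 0.01, SE 0.05). COX6B2 therefore made up 18.1% ± 1.58 of the reads of the pair in the control libraries and 0.779% ± 0.616 in the STIM1 knockout libraries (SD, n = 3). NDUFA4L2, a hypoxia-induced relative of the complex IV subunit NDUFA4, had 14, 8 and 10 reads in the control libraries and 1 in each of the other libraries. The ratio of normalized reads was 0.101 with an exact binomial 95% interval of 0.0198 to 0.323, which covers counting error only. NDUFA4L2 overlaps SHMT2, so its reads are uncertain, and NDUFA4 itself had a log2 change of -0.02 (SE 0.04) and did not pass.

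COX7A2L, which takes part in supercomplexes of complexes III and IV, was at 2589, 2409 and 2361 normalized counts against 1428, 1660 and 1502 (-0.68, SE 0.05, limma adjusted p = 1.93e-08). COX7A2, the liver-type isoform, was at 1445, 1403 and 1391 against 1139, 946 and 1030 (-0.45, SE 0.06). COX8A was at 1855, 1676 and 1725 against 1307, 1323 and 1298 (-0.42, SE 0.04). In all 3 genes the STIM1 knockout libraries were the lower ones. The muscle isoforms COX7A1 and COX6A2 were near 0 in both groups, with at most 7 reads and 1 read in any library.

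The rises in complex IV were in general subunits. COX7C was at 3501, 3198 and 3238 normalized counts against 4431, 4197 and 4419 (0.39, SE 0.04, limma adjusted p = 2.30e-07). COX5B changed by 0.32, COX7B by 0.30, COX4I1, the general isoform of the largest nuclear subunit, by 0.26 and COX5A by 0.17, with standard errors of 0.04 to 0.05. None of these 5 genes had overlapping groups. COX6A1, the non-muscle isoform and the subunit with the highest level per kilobase in this complex (7636 normalized counts per kb of the deposited length in the control group), had a log2 change of -0.03 (SE 0.04) and did not pass.

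Of the 9 complex IV assembly factors, 3 rose, 2 fell and 4 did not pass by the authors' deposited table. COX18, an insertase for the mitochondrially encoded COX2, was at 388, 356 and 341 normalized counts against 207, 221 and 196 (-0.80, SE 0.09). COX14, which acts in the synthesis and assembly of COX1, was at 646, 581 and 640 against 441, 419 and 483 (-0.48, SE 0.07). Both had groups without overlap. COX17, a copper chaperone, changed by 0.31 (SE 0.07), and the heme A enzymes COX10 and COX15 by 0.20 (SE 0.05) and 0.13 (SE 0.04).

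Complex V had 7 members that rose, 3 that fell and 9 that did not pass by the authors' deposited table, with a median change of 0.05. ATP5F1B, the catalytic beta subunit and the member with the highest level per kilobase, was at 18827, 18973 and 18806 normalized counts in the control libraries and at 23465, 22606 and 22439 in the STIM1 knockout libraries (0.28, SE 0.02, limma adjusted p = 4.01e-08). ATP5F1A, the alpha subunit that pairs with it, was at 7296, 6972 and 7066 against 7532, 7461 and 7150 with overlapping groups (0.05, SE 0.03). ATP5F1C, the gamma subunit of the rotor, was at 1919, 1633 and 1764 against 2241, 2207 and 2338 (0.35, SE 0.05). The beta and gamma subunits were thus higher in every STIM1 knockout library.

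ATP5F1D, the delta subunit of the rotor, went the other way. It was at 1109, 1099 and 1077 normalized counts against 501, 547 and 543 (-1.05, SE 0.05, limma adjusted p = 1.62e-10). ATP5F1E, the epsilon subunit, rose from 21.8 ± 3.29 to 57.3 ± 3.13 (SD, n = 3), a level far below its partners and in a gene with overlapping annotations, so it is uncertain. ATP5PO, the stalk protein that confers oligomycin sensitivity, changed by -0.37 (SE 0.04). ATP5MC2, 1 of the 3 genes for the same c-ring protein, changed by -0.32 (SE 0.04), while ATP5MC1 and ATP5MC3 had log2 changes of 0.00 (SE 0.04) and 0.06 (SE 0.04), overlapping groups and no call.

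**Figure D3:**
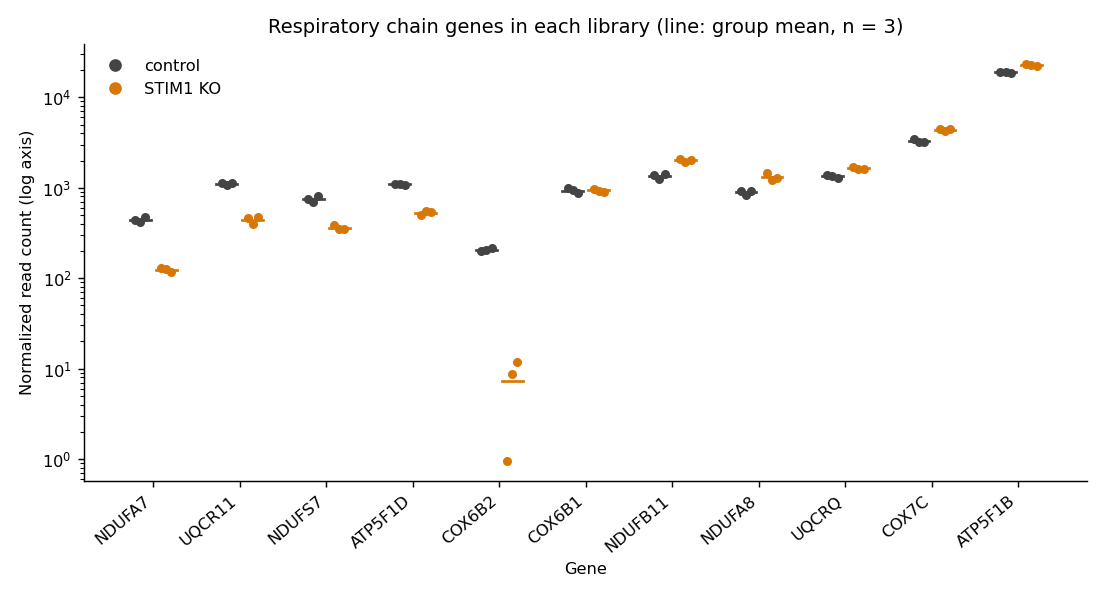
Normalized read count, on a log axis, of 11 respiratory chain genes in each of the 6 libraries, with a line at the mean of each group. NDUFA7, UQCR11, NDUFS7, ATP5F1D and COX6B2 are lower in every STIM1 knockout library, COX6B1 overlaps between groups, and the 5 genes at the right are higher in every STIM1 knockout library.

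After COX6B2, the 4 largest falls at a mean of at least 100 normalized counts were all of genes on chromosome 19. UQCR11, NDUFS7 and ATP5F1D start at 1597169, 1383904 and 1241751 on the short arm of chromosome 19 (GRCh38, the build of the deposited coordinates), and NDUFA7 starts at 8308595 on the same arm. Genes around them that are not members were lower too. Within 500 kb of UQCR11 there were 32 genes at a mean of 10 or more, of which 28 fell by the authors' deposited table, and their median change was -1.33. Around NDUFA7 18 of 20 fell (median -1.18), around NDUFS7 28 of 33 (median -0.79) and around ATP5F1D 26 of 31 (median -0.74). The windows of UQCR11, NDUFS7 and ATP5F1D share genes. Among the 66 members with at least 5 such neighbours these were the 4 lowest medians. For COX6B2, near the end of the long arm of chromosome 19, the neighbours had a median of -0.14.

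Over the 66 members, the change of a gene and the median change of its neighbours had a Pearson r of 0.45 and a Spearman rho of 0.58. Without chromosome 19 they were 0.50 and 0.53 over 57 members. Over 9015 genes of all kinds, r was 0.25 and rho 0.38. There only the gene itself was left out of its neighbours, whereas for members all other members were left out too. These are descriptions across genes, which are not independent, since neighbours overlap and all genes share the 6 libraries. Of the 12 members on chromosome 19, 1 rose and 6 fell by the authors' deposited table. All 4 members on chromosome 10 rose, while of the 7 on chromosome 11 none rose and 4 fell. Chromosomes 10 and 11 were picked out after the counts of all chromosomes were seen. Of all rows 54.5% were called in either direction, and 75.3% of those at a mean of at least 100. The counts by chromosome were not compared with all genes of the same chromosome and were not tested. The number of copies of the chromosome regions named here was not measured, and its part in the result was not tested. The window and the neighbour rule were chosen after seeing the data.

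**Figure D4:**
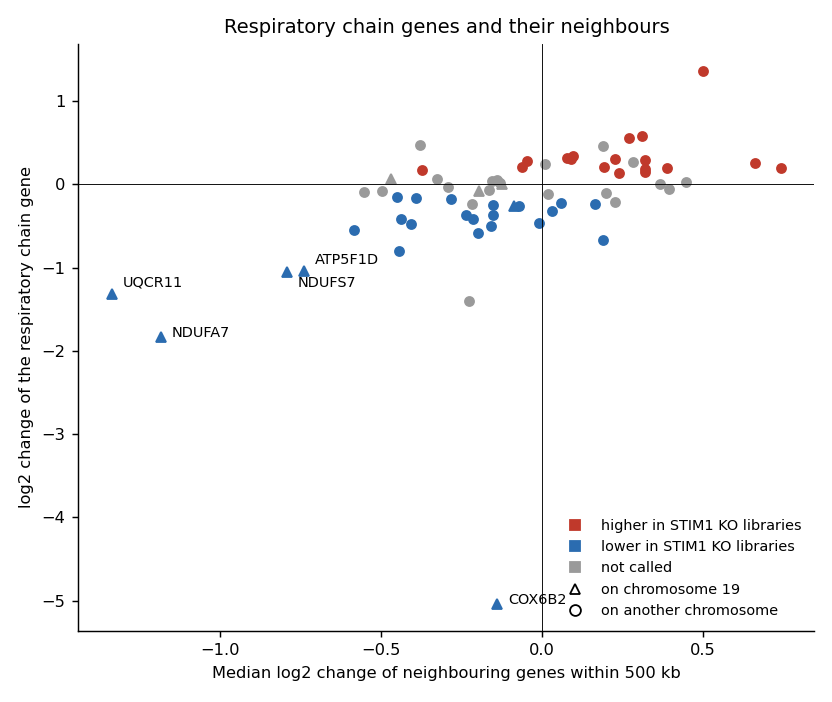
Log2 change of each respiratory chain gene against the median log2 change of other genes within 500 kb, for the 66 members with at least 5 neighbours at a mean of at least 10. Triangles lie on chromosome 19 and colours give the call in the authors' deposited table. UQCR11, NDUFA7, NDUFS7 and ATP5F1D lie at the lower left with neighbour medians of -1.33 to -0.74, and COX6B2 lies far below neighbours at -0.14.

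For 3 of these 4 genes, which fell together, and for the COX6B pair, of which only COX6B2 was called, the 250 bases before the start site are shown, from the RefSeq promoter table of GRCh38.p14, 5′ to 3′ on the strand of the gene. They are UQCR11 at chr19:1605463-1605712 (minus strand), NDUFS7 at chr19:1383657-1383906 (plus strand), NDUFA7 at chr19:8321376-8321625 (minus strand), COX6B2 at chr19:55354720-55354969 (minus strand) and COX6B1 at chr19:35648073-35648322 (plus strand). Capitals mark matches to 3 short motifs known from promoters of respiratory chain genes, searched on both strands, namely CCGGAAG of ETS factors such as GABPA, GCATGCGC of the factor NRF1 and AAGATGGC of YY1.
UQCR11: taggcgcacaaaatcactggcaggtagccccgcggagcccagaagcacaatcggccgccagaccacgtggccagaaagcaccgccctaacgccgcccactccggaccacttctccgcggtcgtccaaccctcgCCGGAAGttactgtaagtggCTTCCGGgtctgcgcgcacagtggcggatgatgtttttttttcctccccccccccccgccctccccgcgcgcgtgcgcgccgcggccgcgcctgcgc
NDUFS7: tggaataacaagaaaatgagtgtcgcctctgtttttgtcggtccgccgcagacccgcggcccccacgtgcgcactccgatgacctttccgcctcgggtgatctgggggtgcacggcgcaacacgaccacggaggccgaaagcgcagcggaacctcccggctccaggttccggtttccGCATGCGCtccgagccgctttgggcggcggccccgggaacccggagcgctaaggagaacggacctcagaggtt
NDUFA7: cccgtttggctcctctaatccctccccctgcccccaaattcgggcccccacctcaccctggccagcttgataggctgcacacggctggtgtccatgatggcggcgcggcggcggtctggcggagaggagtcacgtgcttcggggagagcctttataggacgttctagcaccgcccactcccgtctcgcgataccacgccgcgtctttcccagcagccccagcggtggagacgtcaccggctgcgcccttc
COX6B2: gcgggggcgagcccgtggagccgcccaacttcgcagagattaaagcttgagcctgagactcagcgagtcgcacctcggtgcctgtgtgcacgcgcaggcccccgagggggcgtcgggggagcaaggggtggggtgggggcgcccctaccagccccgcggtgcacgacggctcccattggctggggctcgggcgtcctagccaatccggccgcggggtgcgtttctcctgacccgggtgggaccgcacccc
COX6B1: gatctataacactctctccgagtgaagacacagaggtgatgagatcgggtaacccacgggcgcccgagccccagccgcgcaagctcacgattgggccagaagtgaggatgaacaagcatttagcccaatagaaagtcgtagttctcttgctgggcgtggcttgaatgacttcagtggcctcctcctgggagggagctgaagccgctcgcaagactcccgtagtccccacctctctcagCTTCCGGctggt

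The window of UQCR11 held the ETS letters at 2 places, that of NDUFS7 held the NRF1 letters, and that of COX6B1 held the ETS letters. No match was found in the windows of NDUFA7 and COX6B2. Of the 95 members 76 were in the promoter table, with windows of 300 bases that reach 50 bases past the start. The NRF1 letters were in 19.7% of these windows, against 3.27% of 27305 promoters of all genes. The ETS letters were in 30.3% against 10.7%, and the YY1 letters in 15.8% against 3.03%. Split by the call in the authors' deposited table, the ETS letters were in 8 of 27 members that rose, 7 of 23 that fell and 8 of 26 that did not pass. The NRF1 letters were in 7, 5 and 3 of them and the YY1 letters in 5, 5 and 2. A match is a description of the sequence, not a bound site.

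Genes that assemble or supply the chain were also mixed. For comparison, 54.5% of all rows were called in either direction, and 75.3% of those at a mean of at least 100. The counts of these lists, and of the regulators and carriers below, were not tested against those shares. Of 18 assembly factors of complex I, 6 rose and 9 fell by the authors' deposited table, with a median change of -0.21. NDUFAF1, an early assembly factor of the membrane arm, changed by -1.03 (SE 0.10), and TMEM126B, which works in the same assembly step, by 0.55 (SE 0.05). Of the 4 factors of complex II 1 rose and 3 fell. SDHAF3 and SDHAF4, which act on the iron-sulfur and flavin subunits of the enzyme, changed by -1.10 (SE 0.11) and -1.02 (SE 0.18).

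For complex III, 6 of 9 listed factors were in the table, and 1 rose and 1 fell by the authors' deposited table. They were TTC19, at 0.39 (SE 0.06), and UQCC1, which helps make cytochrome b, at -0.47 (SE 0.06). Of 19 further complex IV factors 10 rose and 4 fell, with a median of 0.29. COA7 was at 760, 667 and 701 normalized counts against 1690, 1520 and 1515 (1.15, SE 0.06, limma adjusted p = 1.54e-10), the groups being far apart, and CMC2 changed by 0.63 (SE 0.05). Of 5 complex V factors none rose and 2 fell by the authors' deposited table, and these were ATPAF1 at -0.15 (SE 0.05) and ATPAF2 at -0.34 (SE 0.07), chaperones of the beta and alpha subunits. These 19 complex IV factors had a higher median than the subunits of complex IV, whose median was -0.02. The 9 complex IV assembly factors with COX symbols, counted apart, had a median of -0.05. The differences were not tested.

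Among 21 regulators of mitochondrial biogenesis and of respiratory chain transcription, 7 rose and 6 fell by the authors' deposited table. HIF1A, the oxygen-regulated factor of the hypoxia response, was at 7437, 7948 and 7677 normalized counts in the control libraries and at 1138, 1254 and 1224 in the STIM1 knockout libraries (-2.67, SE 0.04, limma adjusted p = 5.62e-16). CHCHD2, which binds complex IV and also acts in the nucleus, was at 8569, 8594 and 8425 against 4718, 4264 and 4462 (-0.93, SE 0.03). PPARGC1A, a coactivator of mitochondrial biogenesis, was picked out after its values were seen, and was at 346, 336 and 340 against 1166, 1156 and 1117 (1.75, SE 0.05). None of these 3 genes had overlapping groups. The factors NRF1 and YY1 had log2 changes of 0.15 (SE 0.08) and 0.07 (SE 0.04) and did not pass, and GABPA, the DNA-binding ETS subunit of NRF2/GABP, fell by 0.83 on the log2 scale. The GABP genes GABPB1 and GABPB2 went the other way and rose by 0.63 (SE 0.07) and 0.57 (SE 0.09).

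Of 17 genes for electron carriers and their supply, 5 rose and 5 fell by the authors' deposited table. COQ8A, needed for ubiquinone synthesis, was at 990, 1082 and 1102 normalized counts against 454, 484 and 480 (-1.16, SE 0.06). ETFB, the beta subunit of the electron transfer flavoprotein, was at 1121, 1093 and 1087 against 630, 593 and 604 (-0.85, SE 0.05), while ETFA, its partner, changed by 0.30 (SE 0.03). Both COQ8A and ETFB were lower in every STIM1 knockout library. CYCS, cytochrome c itself, changed by 0.36 (SE 0.03).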

How the data were processed

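Messenger RNA of 6 libraries was sequenced, 3 per group, with groups taken from the sample titles. Per the labels' protocols, total RNA was made into libraries with a SMARTER mRNA-Seq kit. The submitters' processing notes name mouse builds, while the deposited table uses chromosome accessions of human GRCh38. The aligner and counting method are not given in the sources used here. Per the file headers, the authors deposited for each gene a signal, the group mean of read counts divided by size factors, with a ratio (fold change) of the means, its log2 value, a p-value and an adjusted p-value in the DESeq format, and a gene length in bases. In the genotype field the knockout samples read STIM1, STIM2 and STIM3, whereas the titles name a single group.

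Reads per library were recovered from the deposited means, which carry 15 digits, as the whole numbers whose mean after division by 3 size factors gives the printed value. All 17381 rows were settled. In each group 1 row had several solutions, neither of them a member. Recomputed size factors differed from the recovered ones by at most 1.22e-13 percent. Above a mean of 60 the search was held to library values at most 50% away from the mean. For abundant rows values at most 15% away were tried first, and for the most abundant rows only those. Rows of moderate mean without a solution were searched without a limit. These limits favour a small SD, and the count of rows with several solutions holds within them. Rows that share a name were summed, and no row of a summed member had a deposited adjusted p under 0.05. The limma fit (version 3.58.1, R 4.3.3, trend, Benjamini-Hochberg adjustment) was made on log2(normalized count + 1) and took genes whose mean reached 1. The recovery and the fit were tested on simulated data. Size-factor scaling was compared with other scalings, and the alternatives are given at the end.

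The members, roles and gene lists were chosen with earlier results of these data known. Named members are every SDH gene, up to 3 rises and 3 falls of largest deposited change in each complex at a mean of at least 10 and the isoform groups of COX4I, COX6A, COX6B, COX7A, COX8 and NDUFA4. Other lists give the 2 genes of smallest deposited p. Core subunits of complex I, other members and list genes named beside these were chosen after their values were seen. Results for 3 of the genes counted are not reported here by name.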

Additional observations from a re-analysis of the deposited data

How the results depend on the processing

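The number of members called stayed between 52 (at a deposited adjusted p under 0.01) and 63 (limma, limma-voom, upper-quartile scaling and main-chromosome rows alone) over all alternatives run, with 22 to 29 higher and 30 to 35 lower. Leaving out each library in turn gave 60 to 63. The 4 members that limma called lower and the authors' deposited table did not were NDUFB3, COX6C, ATP5ME and ATP5MGL, the last 2 at under 6 normalized counts in the STIM1 knockout libraries on average. All 40 named members with a limma value kept their side of the threshold in all 558 comparisons with an alternative fit. Those that limma called also kept their direction. Direction was not compared for the named members that limma did not call. The median change of the members moved between -0.05 and -0.01. The summed level of the complex IV assembly factors, -0.026 on the log2 scale, was -0.0023 with upper-quartile scaling, and the cause was not tested. The median change of all genes tested was -0.042 with size factors and -0.018 with upper-quartile scaling. No paired analysis was possible because the recovered libraries carry no sample numbers. Depth limits the members at a few reads, for which the smallest changes were not detectable.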

Other observations

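Genes of the citric acid cycle, which feeds electrons to the chain, were higher more often than lower in the STIM1 knockout libraries. Of 13 genes other than those of complex II, 8 rose and 3 fell by the authors' deposited table, with a median log2 change of 0.19. Of all rows, 25.7% were called higher and 28.8% lower. At a mean of at least 100, which all 13 genes reached, 75.3% of rows were called in either direction. The difference from those shares was not tested. IDH3A, the catalytic subunit of the NAD-dependent isocitrate dehydrogenase, was at 906, 940 and 996 normalized counts in the control libraries and at 1943, 1883 and 1791 in the STIM1 knockout libraries (0.98, SE 0.05). DLD, the shared lipoamide dehydrogenase, was at 1635, 1615 and 1671 against 2848, 2819 and 2918 (0.80, SE 0.03). In both genes the groups were far apart. Among those that fell, SUCLG2, a subunit of succinyl-CoA ligase, dropped by 0.68 on the log2 scale and IDH3B, a partner of IDH3A, dropped by 0.26.

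Of 12 genes that shape the inner membrane cristae or scaffold mitochondrial proteins, 8 rose and 3 fell by the authors' deposited table. Their median was 0.25. Of all rows, 25.7% were called higher and 28.8% lower. At a mean of at least 100, which most of these genes reached, 75.3% of rows were called in either direction. The difference from those shares was not tested. CLUH, an RNA-binding protein of transcripts for mitochondrial proteins, was at 2704, 2969 and 2845 normalized counts against 4472, 4493 and 4322 (0.64, SE 0.04). PHB2, a prohibitin, was at 5700, 5657 and 5793 against 4078, 4057 and 4158 (-0.48, SE 0.03), while its partner PHB changed by 0.23 (SE 0.03). CHCHD3, a MICOS subunit chosen after its value was seen, changed by 0.64 (SE 0.05).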
